A study of Mus musculus with 12 samples.

Results

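The mitochondrially encoded transcripts were the rows of the gene table whose symbol starts with mt-. They numbered 37 of 56748 genes, namely 13 mRNAs, 2 rRNAs and 22 tRNAs, all of them transcribed from the circular genome of the mitochondrion. At least 1 read was counted for 36 of the 37 in some library, and the phenylalanine tRNA mt-Tf was at 0 in all 12. RNA was collected from mouse retina in 4 groups of 3 libraries. All mice were homozygous for Ribo-Tag, an epitope-tagged ribosomal protein Rpl22 that Cre switches on, and all carried i75-Rod-Cre, a Cre transgene active in rod photoreceptors. The controls (RiboTag; Pkm2 fl/+; i75-Rod-Cre) were littermates that kept a working Pkm2 allele and carried a floxed allele next to it, so they were not free of Cre or of Pkm2 deletion. The knockouts (Pkm2 Rodko; RiboTag; Pkm2 fl/fl; i75-Rod-Cre) carried the floxed allele on both chromosomes. For each genotype, "rods" are libraries of RNA precipitated with tagged ribosomes (Rod-TRAP) and "retina" are libraries of the total lysate before precipitation. The mice received a cycloheximide perfusion before the tissue was frozen, the labels name poly(A) RNA as the molecule, and the sources differ on the age, which is 2 weeks in the design text and 2 months in the methods. Nothing states whether a library came from a single animal, so p-values measure the spread between these libraries only.

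Mitochondrial DNA is transcribed from both strands as long precursors that are cut at the tRNAs. Most of the mRNAs receive short poly(A) tails, and they are read by the mitochondrion's own ribosomes inside the matrix, whose proteins come from the nucleus and do not include Rpl22. Their 13 products are core subunits of the respiratory chain and ATP synthase: the mt-Nd genes of complex I, mt-Cytb of complex III, the mt-Co genes of complex IV, and mt-Atp6 and mt-Atp8 of complex V. The other subunits of these complexes are made by cytosolic ribosomes from nuclear mRNAs. Rod photoreceptors pack dense mitochondria into the ellipsoid of the inner segment. A pulldown of cytosolic ribosomes is therefore not meant to hold mitochondrial RNA. The comparison of rods with retina gives its level relative to the other RNA in each, and not the amount that was left.

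Pieces of mitochondrial DNA have also been copied into the nuclear chromosomes during evolution, and some of the copies are so close to the original that short reads fit both. The GENCODE vM21 transcripts of mouse (GRCm38, a different build from the GRCm39 that the submitters' processing notes name) held 21 pseudogenes matching a mitochondrial mRNA over at least 60 bases at 85% identity or more. Of these, 7 matched at 99% or more, and all 7 lay on chromosome 1. The sequences below, read 5′ to 3′ on the sense strand from those transcripts, are shown because the reads counted for a copy followed its match to the mitochondrial gene. Capitals mark the bases at which a copy and the mitochondrial gene differ. The first group is bases 445 to 504 of mt-Co2 (cytochrome c oxidase subunit II), the same stretch of Gm28661, which has 0 mismatches over its 681 aligned bases, and that of Gm13341, with 6 mismatches in the window.
mt-Co2: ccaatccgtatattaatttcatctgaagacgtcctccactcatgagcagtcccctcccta
Gm28661: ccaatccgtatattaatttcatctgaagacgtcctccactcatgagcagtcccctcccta
Gm13341: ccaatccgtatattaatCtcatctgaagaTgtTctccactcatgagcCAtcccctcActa

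The second group is bases 1 to 40 of mt-Nd3 (a complex I subunit) and of its copy Gm28438, which differed at a single base of the 345 aligned, T3C, counted from 1 at the start of mt-Nd3 with the base of mt-Nd3 first.
mt-Nd3: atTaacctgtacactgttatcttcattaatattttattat
Gm28438: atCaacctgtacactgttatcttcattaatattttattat

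The third group is bases 1063 to 1102 of mt-Co1 (cytochrome c oxidase subunit I) and of Gm29216, a copy of part of it, which differed at A1066T, counted in the same way from the start of mt-Co1.
mt-Co1: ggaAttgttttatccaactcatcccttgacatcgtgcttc
Gm29216: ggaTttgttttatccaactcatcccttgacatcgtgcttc

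The libraries held 13458890 to 22790074 counted reads. Pkm, the targeted gene, was at 3023, 3070.4 and 3175 counts per 1000000 reads (CPM) in the 3 control rod libraries and at 1377, 1295 and 1267 CPM in the 3 Pkm2 Rodko rod libraries, so the groups did not overlap; the count takes Pkm1 and Pkm2 together. Calls for markers are those of the limma fit on the TMM scale described below. All 20 rod markers were called higher in rods than in retina (27.1% of all genes), with a median log2 fold change of 1.89. Gnat1, the rod transducin alpha subunit, had a log2 fold change of 2.08 ± 0.08. Of the 62 markers of bipolar, Müller, amacrine, ganglion and horizontal cells, 60 were called lower in rods (42.5% of all genes) and 1 higher. Their median was −3.13, and 0 of the 62 was without reads in rods.

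Mitochondrial RNA took several percent of the reads in retina and less than 1 percent in rods. The 37 genes together held 7.11, 5.97 and 6.76% of the reads in the control retina libraries and 6.79, 5.33 and 6.22% in the Pkm2 Rodko retina libraries. In rods they held 0.212, 0.322 and 0.24% in the controls and 0.235, 0.125 and 0.168% in Pkm2 Rodko. Every retina library stood above every rod library, and the lowest retina share was 5.33% against a highest rod share of 0.322%. The share was 30.5-fold lower in rods (log2 difference −4.93, geometric mean over both genotypes), with p = 0.005 in a two-sided exact permutation test within genotypes, the smallest value that test can give with these libraries. It was 26.0-fold lower in the controls and 35.7-fold lower in Pkm2 Rodko, where 3 libraries against 3 allow no p below 0.1 in an exact permutation test. Rod libraries and retina libraries of the same number and genotype can be set side by side, since their deviations from the group means were correlated, and the rod share was then 2.98, 5.40 and 3.56% of the retina share in the control pairs and 3.47, 2.35 and 2.70% in the Pkm2 Rodko pairs.

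**Figure D1:**
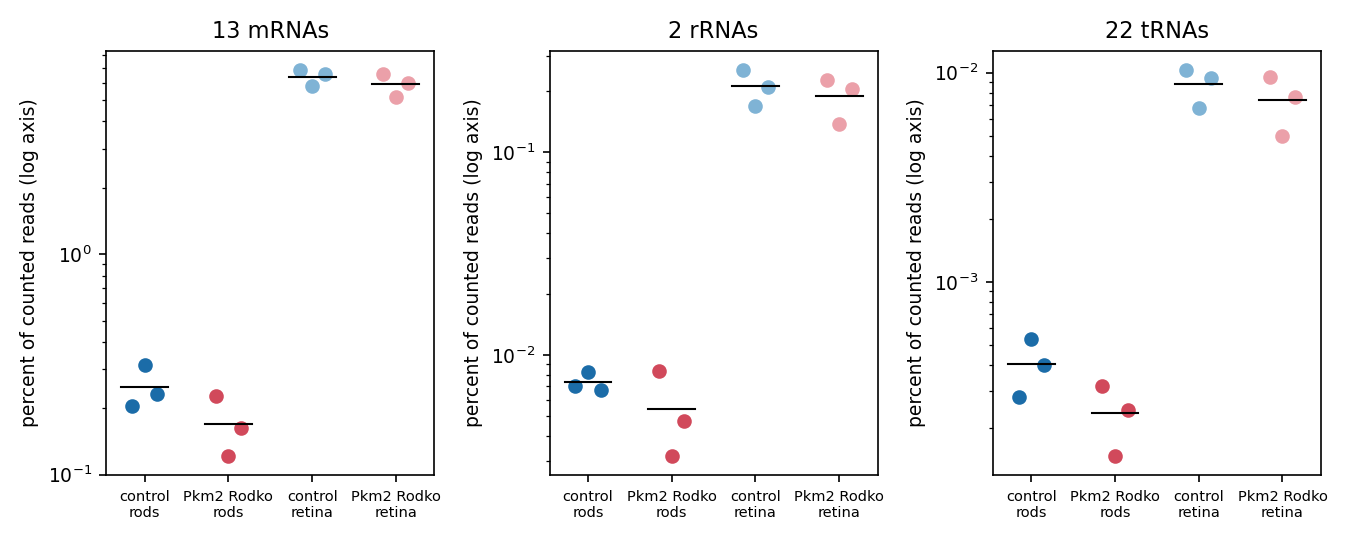
Share of counted reads on the mitochondrial mRNAs, rRNAs and tRNAs in each of the 12 libraries, as percent on log axes of different range; points are libraries and black lines are means of 3. In each class the rod libraries lie below all retina libraries, and for the mRNAs they run from 0.122 to 0.313% against 5.19 to 6.85%.

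All 3 classes were low in rods, and the makeup of the mitochondrial reads by class was close to that in retina. The mRNAs made up 96.3 to 97.3% of the mitochondrial reads in every library. The 2 rRNAs made up 2.55 to 3.53% in rods and 2.59 to 3.58% in retina, and the tRNAs 0.118 to 0.167% and 0.0939 to 0.145%. The ratio of rRNA to mRNA reads differed between rods and retina by −0.10 on the log2 scale (p = 0.4) and that of tRNA to mRNA reads by 0.20 (p = 0.13), both in the exact permutation test and both within the spread of the libraries. With poly(A) RNA as input, the small share of rRNA and tRNA is that of the molecules the library kept, and tRNAs rest on 24 to 122 reads in a rod library against 956 to 1901 in a retina library.

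Gene by gene, limma was applied to log2 of TMM-scaled reads plus 1, with a call at a Benjamini-Hochberg adjusted p below 0.05 over 25584 genes. Of the 37 mitochondrial genes 35 were tested, and all 35 were lower in rods over both genotypes, where 42.5% of all genes tested were called lower. Testing needed a mean of at least 1 in a group. mt-Tq, mt-Ts1, mt-Td, mt-Tk and mt-Tt had no read in rods, and mt-Tw, mt-Tg and mt-Ts2 had a mean below 1 in each rod group. All of these tRNAs met the limit through retina alone, so their direction was fixed beforehand. With 10 or more reads required in every library, 16 of 16 mitochondrial genes were called lower, as were 3912 of all 12918 genes. In the controls alone 34 of 35 were called lower (35.5% of all genes), the exception being mt-Ts1 with 0 to 4 reads a library, and in Pkm2 Rodko alone 34 of 35 (35.1% of all genes), the exception being mt-Tt with 0 to 5. The 13 mRNAs lay between −4.51 (mt-Atp8) and −4.16 (mt-Nd3) with a median of −4.39, against a median of −0.39 over all genes tested. On the scale of total reads, which the shares and CPM use, the median over all genes was −0.74, so fold changes read from CPM lie lower than these. Counted from the lowest log2 fold change over all 25584 genes, the 13 mRNAs ranked from 9 (mt-Atp8) to 66 (mt-Nd3), so other genes stood lower. Among the 3269 genes with a mean scaled level of at least 1000 in retina, the 24 lowest log2 fold changes all belonged to mitochondrial genes or their nuclear copies. The next was that of Snhg11, at −4.03. That limit was chosen after the values were seen and rests on retina alone, where these genes are high, so the ranking within it is no test.

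Complex IV holds the transcript with the most reads. mt-Co1, which encodes the catalytic subunit of cytochrome c oxidase, was at 19539.6, 17237 and 17957 CPM in control retina and at 608, 938 and 657 CPM in control rods. In Pkm2 Rodko it was at 18402, 14869.9 and 16663 CPM in retina and 647, 374 and 485 CPM in rods. Retina and rods were far apart in both genotypes, with a log2 fold change of −4.30 ± 0.12 (SE; adjusted p = 1.83e-13, limma). mt-Co2, which carries the copper site that takes electrons from cytochrome c, was at 4995, 4004 and 4699.6 CPM in control retina and 145, 225 and 171 CPM in control rods (log2 fold change −4.33 ± 0.13 over both genotypes). mt-Co3, the third core subunit, was at 4609.8, 3774 and 4445 CPM in control retina and 142, 206 and 159 CPM in control rods (−4.32 ± 0.12). The 3 genes kept 4.03, 3.94 and 3.96% of their retina CPM in control rods, and 3.02, 2.97 and 3.0% in Pkm2 Rodko rods.

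mt-Cytb, the cytochrome b of complex III, had the second highest number of reads. It was at 10575, 9055 and 10075 CPM in control retina and 10142, 8212 and 9086 CPM in Pkm2 Rodko retina. In rods it was at 299, 441 and 356 CPM in the controls and 334, 183 and 227 CPM in Pkm2 Rodko. It has no near-identical nuclear copy in GENCODE vM21, and its log2 fold change of −4.44 ± 0.12 (adjusted p = 1.38e-13, limma) lay within the range of the mRNAs that do.

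The 7 complex I subunits form part of the membrane arm of NADH dehydrogenase. mt-Nd1, next to the site where ubiquinone binds, was at 6351, 5040.1 and 5893 CPM in control retina and 182, 277 and 208 CPM in control rods. mt-Nd4, an antiporter-like proton pump subunit, was at 5514, 4649 and 5491 and 178, 279 and 199 CPM in the same groups. mt-Nd5, another antiporter-like subunit, was at 4966, 4409 and 5003 and 151, 235 and 177 CPM. The levels in rods were again a few percent of those in retina for all 3. The third antiporter-like subunit, mt-Nd2, had a log2 fold change of −4.45 ± 0.13, mt-Nd1 of −4.40 ± 0.14, mt-Nd4 of −4.31 ± 0.14 and mt-Nd5 of −4.41 ± 0.15. The 2 small subunits were mt-Nd3 at −4.16 ± 0.15, which kept the most of its retina CPM (4.25% in the controls and 3.43% in Pkm2 Rodko), and mt-Nd4l at −4.45 ± 0.13.

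mt-Nd6 is the only mRNA encoded in the opposite orientation to the other 12. It was at 1475, 1119.8 and 1389 CPM in control retina and 45.2, 70.7 and 49.03 CPM in control rods, with a log2 fold change of −4.27 ± 0.15 over both genotypes. Per 100 reads of the other 12 mRNAs it had 2.2, 1.97 and 2.17 reads in control retina and 2.26, 2.31 and 2.15 in control rods, which overlap. The log2 difference of this ratio was 0.09 (exact permutation p = 0.15), and it was 0.16 (exact permutation p = 0.025) when the mRNAs with a near-identical nuclear copy were left out of the denominator. The gene overlaps mt-Nd5 by 14 bases on the opposite strand, and whether the counting used strand is not given in the sources used here.

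mt-Atp6, the proton channel subunit of ATP synthase, was at 4382, 3712 and 4413 CPM in control retina and 129, 208 and 149.7 CPM in control rods (−4.39 ± 0.14). mt-Atp8, which shares its transcript with mt-Atp6 and overlaps it by 43 bases on the same strand, was at 831, 700.4 and 763 CPM in control retina and 20.95, 31.7 and 21.4 CPM in control rods (−4.51 ± 0.13). It kept 3.23% of its retina CPM in control rods, the lowest of the 13, and 2.82% in Pkm2 Rodko rods, where mt-Nd5 was the lowest at 2.69%. The distance of 0.35 between mt-Atp8 and mt-Nd3, the lowest and the highest of the 13 log2 fold changes, compares with standard errors of 0.12 to 0.15 for single genes, and it was not tested.

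**Figure D2:**
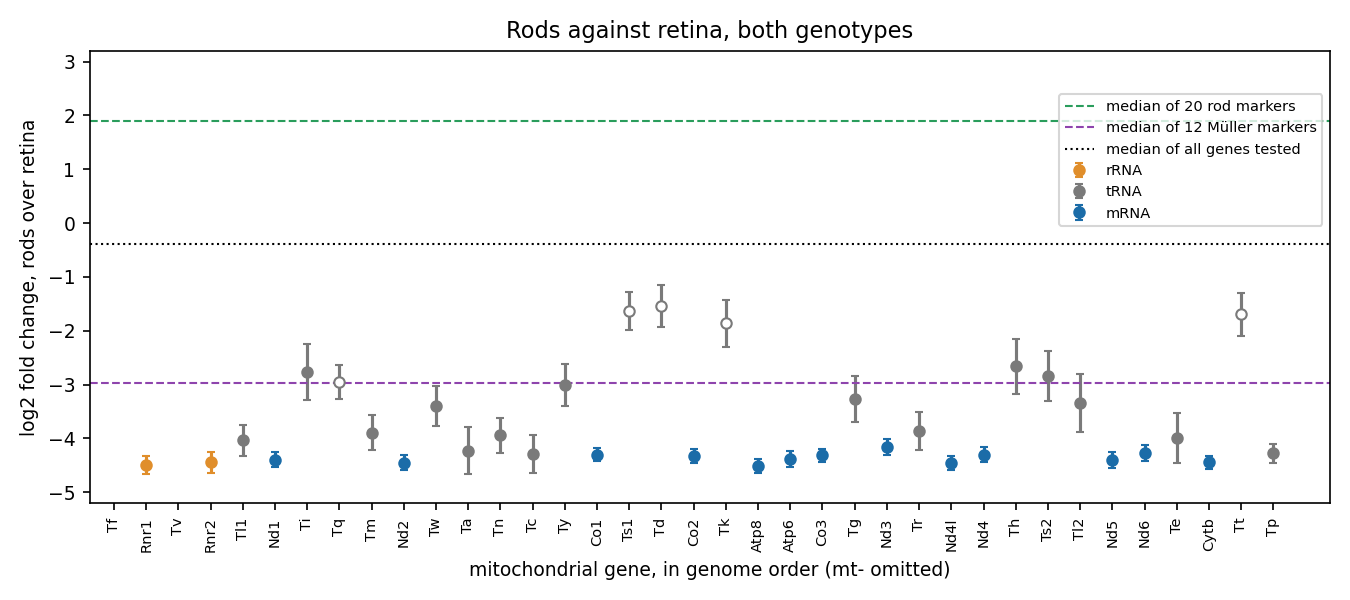
Log2 fold change of rods over retina for each mitochondrial gene in genome order (limma, both genotypes; bars are standard errors), coloured by class; open circles are tRNAs without a read in any rod library, and mt-Tf and mt-Tv were not tested. The 13 mRNAs and 2 rRNAs lie between −4.51 and −4.16, below the medians of all genes, of the rod markers and of the Müller markers (dashed and dotted lines).

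The rRNAs are the structural RNAs of the mitochondrial ribosome. mt-Rnr2, the 16S rRNA of its large subunit, was at 2018, 1342 and 1648 CPM in control retina, 1799, 1056 and 1623 CPM in Pkm2 Rodko retina, 58.8, 65.4 and 50.1 CPM in control rods and 66.1, 24.5 and 38.5 CPM in Pkm2 Rodko rods. mt-Rnr1, the 12S rRNA of the small subunit, was at 526, 354 and 461, 484, 322 and 422, 11.96, 17.4 and 17.01 and 16.9, 7.39 and 8.93 CPM in the same order of groups. Both stood lower in every rod library than in any retina library, with log2 fold changes of −4.45 ± 0.19 and −4.50 ± 0.18 (adjusted p = 9.10e-12 and 2.99e-12, limma), within the range of the mRNAs.

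Among the tRNAs, 16 of 22 had a mean of 10 or more reads in some group. The highest was the proline tRNA mt-Tp, with 620, 381 and 556 reads in control retina, 399, 292 and 366 in Pkm2 Rodko retina, 13, 32 and 11 in control rods and 11, 10 and 12 in Pkm2 Rodko rods. Its log2 fold change of −4.28 ± 0.17 was close to that of the mRNAs. mt-Tl1, a leucine tRNA, had 281, 202 and 322 reads in control retina and 8, 21 and 11 in control rods (−4.04 ± 0.29). mt-Tn, for asparagine, had 254, 152 and 259 and 3, 26 and 6 (−3.94 ± 0.33), and mt-Te, for glutamate, 168, 100 and 163 and 3, 11 and 10 (−4.00 ± 0.46). The other named tRNAs with reads in rods, mt-Tm, mt-Tc, mt-Ty, mt-Tr, mt-Ta, mt-Tl2, mt-Ti, mt-Tw, mt-Tg, mt-Th and mt-Ts2, had 0 to 12 reads in a rod library and 3 to 136 in a retina library. Every retina library was above every rod library in CPM for 16 of the 22 tRNAs, as it was for all 13 mRNAs and both rRNAs. The share over all genes was counted only within a genotype, 3 libraries against 3, which is easier to meet. Without overlap in this direction were 51.2% of the 25584 genes tested in the controls and 51.8% in Pkm2 Rodko. Fitted fold changes of such low genes depend on the pseudocount, and those of the lower tRNAs are shown in the plot by gene and not given here.

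The glutamine tRNA mt-Tq and 5 others (mt-Tf, mt-Ts1, mt-Td, mt-Tk and mt-Tt, named here because they were at 0, after their values were seen) had no read in any rod library. mt-Tq had 52 reads over the 6 retina libraries, 4 to 14 in each, and a limit of 3 reads over the 6 rod libraries together puts it at least 17.2-fold lower there. The same limit gives at least 7.93-fold for mt-Tk, the next, and counting error only is covered. The valine tRNA mt-Tv had 0 to 2 reads in any library, although it lies between the 2 rRNA genes.

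The makeup of the mitochondrial mRNA reads differed by at most 1.13 percentage points between the means of rods and retina. mt-Co1 took 29.5% ± 0.95 (SD, n = 6) of the reads on the 13 mRNAs in rods and 28.4% ± 0.811 in retina, and mt-Cytb 14.6% ± 0.52 and 15.5% ± 0.231. mt-Nd1 took 8.79% ± 0.264 in rods and 9.04% ± 0.205 in retina, mt-Nd4 8.48% ± 0.335 and 8.18% ± 0.172, and mt-Nd5 7.24% ± 0.588 and 7.48% ± 0.448. The smallest shares were those of the short genes mt-Nd3, with 1.14% ± 0.162 and 0.994% ± 0.0986, mt-Nd4l, with 1.01% ± 0.0251 and 1.07% ± 0.0244, and mt-Atp8, with 1.02% ± 0.0581 and 1.14% ± 0.0639. The ranges over 6 libraries overlapped between rods and retina for all 13 genes. Within the 6 pairs of libraries, the shares of mt-Co1, mt-Co3 and mt-Nd3 were higher in rods in 6 of 6, by a mean of 1.13 ± 0.817, 0.203 ± 0.195 and 0.147 ± 0.0796 percentage points (SD), and those of mt-Cytb and mt-Nd2 were lower in 6 of 6, with mean differences of −0.873 ± 0.475 and −0.347 ± 0.21. The other 8 genes had pairs in both directions. Shares of one total are not independent of each other, and they were not tested.

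**Figure D3:**
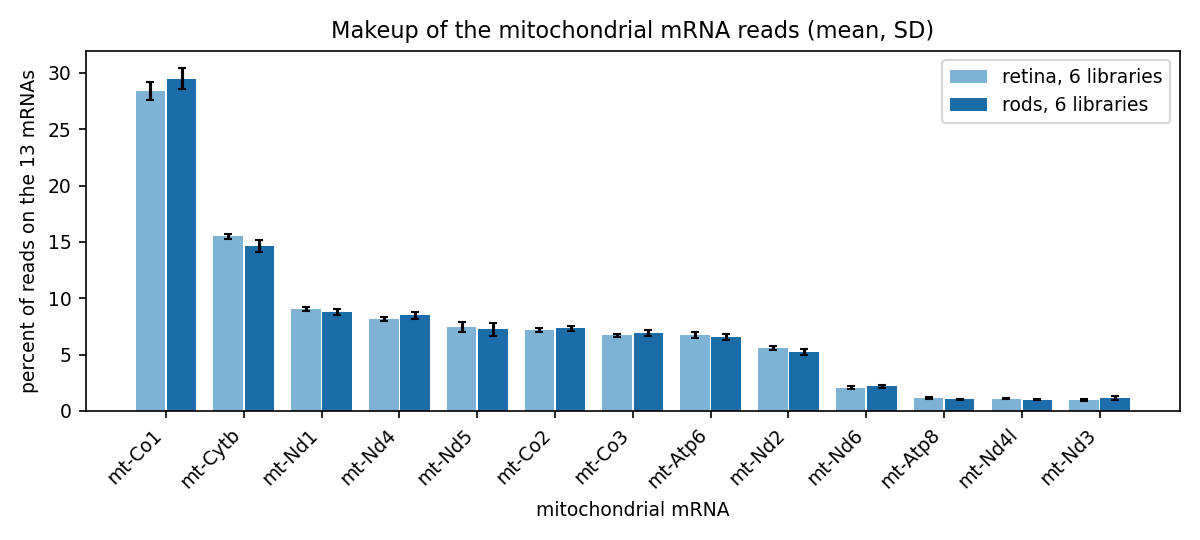
Percent of the reads on the 13 mitochondrial mRNAs that each gene took, as the mean of 6 retina and 6 rod libraries (both genotypes; bars start at 0, error bars are SD). mt-Co1 is the highest in both, at 28.4% in retina and 29.5% in rods, and mt-Nd3, mt-Nd4l and mt-Atp8 are the lowest 3 in both.

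Per length of gene the order began with mt-Co1, mt-Cytb, mt-Co2, mt-Atp6, mt-Nd1 and mt-Co3 in both fractions. In retina these were at 11291 ± 1038, 8325 ± 774, 6473 ± 669, 6047 ± 569, 5818 ± 668 and 5265 ± 535 CPM per kilobase (RPKM; mean ± SD, n = 6). mt-Nd4 followed at 3653 ± 381 RPKM, then mt-Atp8, mt-Nd2, mt-Nd5, mt-Nd6, mt-Nd4l and, last, mt-Nd3 at 1765 ± 294 RPKM. The ranges over the 6 retina libraries overlapped for every pair of neighbours in this order except mt-Co1 with mt-Cytb and mt-Co3 with mt-Nd4, while within a library mt-Co1 stood above mt-Cytb in 6 of 6. In rods the order was the same down to mt-Nd4, all neighbours overlapped, and mt-Co1 was at 400.3 ± 124 RPKM and mt-Nd3 at 67.9 ± 18.97 RPKM. Both rRNAs stood below all mRNAs in retina, at 999 ± 215 RPKM for mt-Rnr2 and 448 ± 81.7 RPKM for mt-Rnr1.

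The nuclear copies bear on these levels, because as many reads were counted for several of them as for the mitochondrial gene itself. Gm28661, identical to mt-Co2 over its 681 aligned bases, had 98.8% of the reads of mt-Co2 in control retina and 99.5% in control rods. Gm28437, identical to mt-Co3 over 783 bases, had 100.4 and 99.9%, and Gm10222, identical to mt-Nd4l over 294, had 99.7 and 101%. Gm10925, identical to mt-Atp6 over 678 bases, had 133 and 128% of its reads. Gm28438, with its single mismatch at T3C, had 97.6 and 96.6% of the reads of mt-Nd3. These 5 copies match nearly the whole length of the mitochondrial gene, and their reads were close to or above those of the gene in every group.

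Copies of part of a gene had a smaller share of its reads. Gm28439, identical to mt-Nd4 over 876 of 1378 bases, had 37.8% of the reads of mt-Nd4 in control retina and 37.05% in control rods, and Gm29216, which covers 483 of the 1545 bases of mt-Co1 with the mismatch A1066T, had 19.5 and 22.6% of those of mt-Co1. The more diverged Gm13341 (95.9% identity over 684 bases of mt-Co2) had 3.84 and 4.19%, Gm13340 (97.6% of mt-Co1) 1.07 and 1.27%, and Gm13339 (96.7% of part of mt-Nd2) 0.64 and 0.702%. Gm4076, at 95.2% identity to part of mt-Nd5, had 10 to 19 reads in a retina library and 0 or 1 in a rod library. The other 10 diverged copies had 12 reads or fewer in any library.

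**Figure D4:**
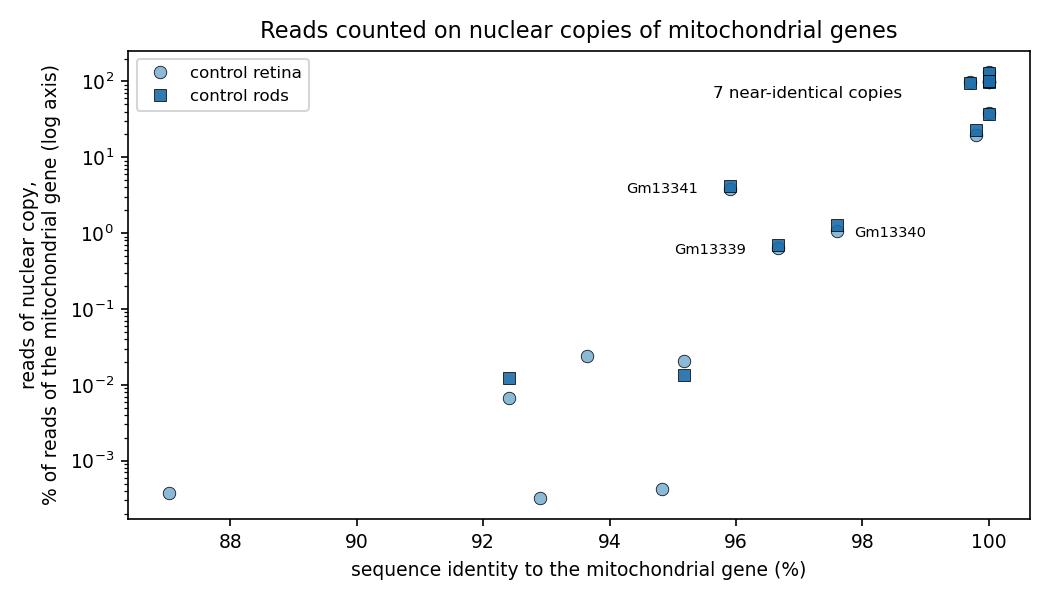
Reads counted for each nuclear copy of a mitochondrial mRNA as percent of the reads of that mRNA (log axis), against the copy's sequence identity to it, in control retina (circles) and control rods (squares); copies without reads are not drawn. The 7 near-identical copies, at 99% identity or more, had 19.5 to 133% of the reads of their gene, and no diverged copy reached 5%.

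The copies fell in rods as their mitochondrial partners did. The 7 near-identical copies kept 3.61 to 4.64% of their retina level in control rods and 2.78 to 3.48% in Pkm2 Rodko rods, beside 3.23 to 4.25% and 2.69 to 3.43% for the 13 mRNAs. They held 1.77 to 2.27% of all reads in retina and 0.0440 to 0.107% in rods, so that the mitochondrial genes and these copies together held 7.10 to 9.39% and 0.169 to 0.429%. How reads that fit more than 1 place were counted is not given in the sources used here, so the levels of mt-Co1, mt-Co2, mt-Co3, mt-Atp6, mt-Nd3, mt-Nd4 and mt-Nd4l are uncertain as absolute values. With the reads of the copies that span the gene added, mt-Atp6 was at 13997 ± 1280.0 RPKM and mt-Co2 at 12872 ± 1346 RPKM in retina, both ahead of mt-Co1. The rods-to-retina difference of the share was −4.91 on the log2 scale with the copies added and −4.99 for the 6 mRNAs that have no such copy. Gm10288, listed beforehand as a possible copy, matched no mitochondrial gene and was higher in rods (0.37 ± 0.09, adjusted p = 0.00232, limma).

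The nuclear mRNAs for the same complexes went the other way. The 73 nuclear-encoded subunits of complexes I, III, IV and V held 0.718, 0.668 and 0.704% of the reads in control retina and 0.882, 0.87 and 0.939% in control rods. By complex and on the TMM scale, 36 of 37 genes of complex I, 9 of 9 of complex III, 11 of 11 of complex IV and 15 of 15 tested of complex V were higher in rods (27.1% of all genes), with median log2 fold changes of 0.68, 0.80, 0.70 and 0.79. The number called depends on the scale. On total reads the fold changes lie lower, and the counts on that scale are not given here. In summed CPM the nuclear subunits stood in control rods at 123, 129, 112 and 139.8% of their control retina level for complexes I, III, IV and V, and the mitochondrial subunits at 3.94, 3.69, 4.0 and 3.79%. Over the libraries of both genotypes the nuclear sums of complex IV overlapped, at 1082 to 1570 CPM in rods and 1084 to 1240 CPM in retina. Those of complexes I, III and V did not overlap. For each 100 reads on the nuclear subunits there were 954, 868 and 929 reads on the 13 mitochondrial mRNAs in control retina and 925, 775 and 923 in Pkm2 Rodko retina. In rods there were 23.2, 36.02 and 24.8 in the controls and 23.1, 13.9 and 20.5 in Pkm2 Rodko. This ratio was 39.4-fold lower in rods (exact permutation p = 0.005, the smallest possible), with every retina library above every rod library.

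Mitochondrial RNA was also further reduced than the summed markers of cells that make no tagged ribosomes. The 62 non-rod markers summed to 11134, 10042 and 10899 CPM in control retina and 1368, 1632 and 1532 CPM in control rods. Rods thus kept 11.7 to 16.3% of the summed markers over the 6 pairs of libraries, against 2.35 to 5.40% of the mitochondrial reads. The ratio of mitochondrial mRNA to the markers was 4.10-fold lower in rods (log2 −2.04, exact permutation p = 0.005). The marker sum includes Otx2, a transcription factor that photoreceptors express too, at a log2 fold change of 0.93 ± 0.06, and Prkca at −0.02 ± 0.10. Against the 12 Müller glia markers alone, all of which were called lower in rods (42.5% of all genes), the log2 difference was −1.48 (exact permutation p = 0.005). Malat1, a long RNA that stays in the nucleus, was at 180.1, 259 and 185 CPM in control retina and 9.81, 24.5 and 20.03 CPM in control rods, and rods kept 5.45 to 10.8% of it over the 6 pairs. The list of 6 long RNAs retained in the nucleus, all 6 lower in rods (42.5% of all genes), had log2 fold changes of −4.03 to −2.45 with a median of −3.16 over both genotypes. In Pkm2 Rodko alone the lowest of them, at −4.48, lay within the range of the 13 mitochondrial mRNAs, which was −4.67 to −4.33, and the difference between these RNAs and the mitochondrial mRNAs was not tested. In bulk RNA, fewer cells of a type and less RNA per cell cannot be told apart, and the part that carried-over lysate or other cells have in the remaining mitochondrial reads was not tested.

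Nuclear genes that maintain and express the mitochondrial genome are translated in the cytosol, and the number called in rods depended on the scale. On the TMM scale, of 16 genes for mitochondrial DNA maintenance and transcription 10 were higher and 3 lower (27.1% and 42.5% of all genes), of 29 for processing and stability of mitochondrial RNA 22 were higher and 1 lower, and of 15 translation factors 12 were higher and 1 lower, with median log2 fold changes of 0.42, 0.45 and 0.52. With total reads in place of TMM, the medians were −0.15, −0.12 and −0.04, and 2, 5 and 4 genes were higher (10.6% of all genes) and 7, 12 and 5 lower (57.5% of all genes), while the median over all genes moved from −0.39 to −0.74. With total reads without the mitochondrial genes, 2, 4 and 3 were higher (8.38% of all genes) and 9, 16 and 6 lower (60.7% of all genes). The 3 highest were Polg2, the accessory subunit of the mitochondrial DNA polymerase (1.44 ± 0.09), Gfm1, a mitochondrial elongation factor (1.20 ± 0.07), and Top1mt, the mitochondrial topoisomerase I (1.14 ± 0.09). The 3 lowest were Mterf1b (−1.14 ± 0.26) and Mterf1a (−1.04 ± 0.17), both of the family of mitochondrial transcription termination factors, and Fastkd2 (−0.56 ± 0.11), an RNA-binding protein needed for assembly of the mitochondrial ribosome. These 6 were past the threshold in the same direction on the TMM scale and with total reads. Mterf1a and Mterf1b are close paralogs, so reads may be split between them.

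The comparison of genotypes asks whether loss of Pkm2 in rods went with a change in mitochondrial RNA. In rods the mitochondrial share was 0.258% ± 0.0573 (SD, n = 3) in the controls and 0.176% ± 0.0555 in Pkm2 Rodko. The groups overlapped, since Pkm2 Rodko library 1, at 0.235%, was above control library 1, at 0.212%. The log2 difference was −0.58 ± 0.32 (SE) with p = 0.2 in a two-sided exact permutation test, where 0.1 is the smallest value possible. It was −0.36 without Pkm2 Rodko library 2 and −0.41 without control library 2, the lowest and the highest of the 6, and −0.81 without Pkm2 Rodko library 1.

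In the gene-by-gene test in rods (limma on log2 of the deposited value plus 1, 20658 genes), 0 of 27 mitochondrial genes tested passed, where 0.0194% of all genes were called. At an unadjusted p below 0.05, 11 of the 27 were lower (3.41% of all genes tested were lower at that level), all of them mRNAs. By edgeR 11 were lower (3.5% of all genes) and by DESeq2 2 (1.93% of all genes). These genes share their libraries and the same precursor RNA, so the 11 are not separate observations. The 13 mRNAs lay between −0.65 ± 0.20 (mt-Nd5) and −0.39 ± 0.21 (mt-Nd3), each with an adjusted p of 0.932. mt-Rnr2 was at −0.51 ± 0.25 and mt-Rnr1 at −0.52 ± 0.25. None of the 13 mRNAs or 2 rRNAs had all Pkm2 Rodko rod libraries below all control rod libraries, against 5.4% of all genes. Of the 22 tRNAs 3 did, mt-Tl1, mt-Tp and mt-Tr, with 0 to 32 reads in a rod library. The number lower at an unadjusted p below 0.05 was 1 without Pkm2 Rodko library 2 (1.98% of all genes), 1 without control library 2 (3.7%), 3 without Pkm2 Rodko library 3 (2.6%), and 9 to 16 when any other library was left out.

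Other RNA that a rod pulldown is not meant to hold was compared between genotypes too, by exact tests of 3 libraries against 3 that cannot give a p below 0.1. The summed non-rod markers were at 1368, 1632 and 1532 CPM in control rods and 1300.0, 1193 and 1278 CPM in Pkm2 Rodko rods, which do not overlap (log2 difference −0.26, exact permutation p = 0.1, the smallest possible). Of the 62 markers 55 had a fold change below 0, with a median of −0.34, and 0 passed the limma test, where 0.0194% of all genes were called. Malat1 differed by −0.31 (exact permutation p = 0.5), the ratio of mitochondrial mRNA to the markers by −0.32 (exact permutation p = 0.3), and the share of the nuclear respiratory chain subunits by −0.03 (exact permutation p = 0.9). In retina 53 of the 62 markers had a fold change below 0, with a median of −0.10 and 0 past the limma test, where 0.00391% of all genes were called. The summed markers differed by −0.14 in retina (exact permutation p = 0.2) and Malat1 by −0.28 (exact permutation p = 0.2). The part of these markers in the mitochondrial difference was not tested.

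**Figure D5:**
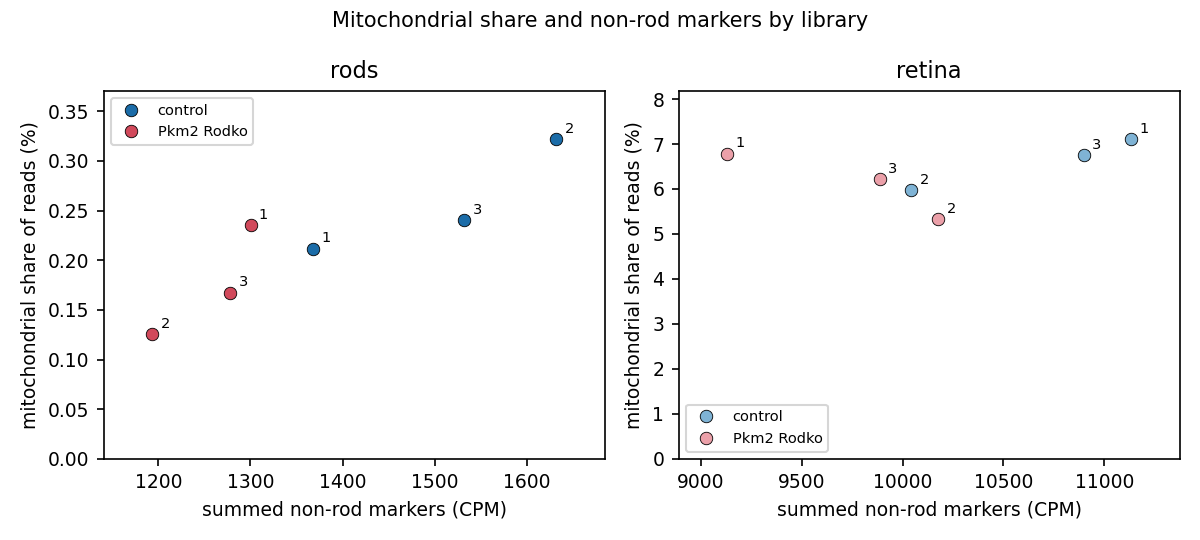
Mitochondrial share of reads (percent, axis from 0) against the summed level of 62 non-rod markers (CPM) in each library, for rods and for retina; numbers are library numbers within a group. In rods the Pkm2 Rodko libraries lie at 0.125 to 0.235% and the controls at 0.212 to 0.322%, and in retina the genotypes overlap on both axes.

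In retina the mitochondrial share was 6.61% ± 0.584 (SD, n = 3) in the controls and 6.11% ± 0.732 in Pkm2 Rodko, a log2 difference of −0.12 ± 0.13 (SE) with overlapping groups (exact permutation p = 0.5). Of 36 mitochondrial genes tested 0 passed, where 0.00391% of 25590 genes were called. At an unadjusted p below 0.05, 2 were lower (2.06% of all genes), mt-Atp8 at −0.25 ± 0.10 and mt-Tp at −0.44 ± 0.18, both with an adjusted p of 0.947 (limma), and edgeR and DESeq2 also gave 2 (2.38% and 1% of all genes). mt-Co1 was at −0.13 ± 0.12 and mt-Cytb at −0.11 ± 0.11.

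The genotype difference in rods minus that in retina was tested directly as an interaction. Of the 35 mitochondrial genes 0 passed by limma, as did 0 of all 25584 genes, and 0 of the 35 had an unadjusted p below 0.05 by limma, edgeR or DESeq2 (2.6, 3.6 and 2.74% of all genes were lower at that level). The 13 mRNAs had a median of −0.41, from −0.53 ± 0.29 for mt-Nd5 to −0.18 ± 0.27 for mt-Atp8. Pairing the rod and retina libraries of the same number as a replicate block left 0 of the 35 past the adjusted threshold and 11 lower at an unadjusted p below 0.05 (4.04% of all genes). Without Pkm2 Rodko rod library 1 that unadjusted count was 15 with no block (4.53% of all genes), and without any other library it was at most 4. In the limma fit with all libraries and no block, the smallest unadjusted p of a mitochondrial gene was 0.084, that of mt-Nd4. Of the 16, 29 and 15 genes for mitochondrial DNA maintenance, RNA processing and translation, 0 were called for genotype in rods, where 0.0194% of all genes were called.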

How the data were processed

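Polyribosome-bound rod RNA and total retina RNA were sequenced in 12 libraries, 4 groups of 3. The submitters' processing notes name CASAVA 1.8.2, HISAT2, DESeq2, edgeR and GRCm39; the counter, annotation, strand setting and treatment of reads with several matches are not given in the sources used here. The values the authors deposited are a signal, reads divided by a size factor, scaled for rods and retina separately. Dividing by the value of 1 read gave whole reads for 99.9996% of values (tolerance 0.051). Shares, CPM and RPKM (GENCODE vM21 gene lengths) came from these reads. Of table columns, 0 lacked a sample.

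Single values per library were compared by exact permutation tests of log2 values, permuted within genotype. Genes were fitted with limma 3.58.1 with trend on log2(value + 1), for genes with a mean of at least 1 in a group and with Benjamini-Hochberg adjustment over all tested: deposited values between genotypes, and reads on a common TMM scale (edgeR 4.0.16) between fractions. Fitted differences are on that scale, which understates changes of low genes. edgeR and DESeq2 1.42.0 on the recovered reads, other scalings and filters, a pseudocount of 0.1, a replicate block and leaving out each library were alternatives. The fits were tested on simulated data. Replicate libraries differed beyond sampling noise. Nuclear copies were found with BLAST+ 2.17.0. Rods and retina of the same number and genotype deviated together (correlations 0.27 to 0.56 in 6 of 6 pairs, 12730 genes), so the numbers were taken to pair them. Floors of 3 reads cover counting error only.

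Named were all mRNAs and rRNAs, tRNAs with a mean of 10 reads in a group, Pkm, Gnat1 and Malat1, nuclear copies with a mean of 10 reads, and the 3 highest and 3 lowest called genes of the mitochondrial gene expression lists; 1 further gene of the rule is not reported here. The members and lists were chosen with earlier results of these data known. Müller markers alone, the 1000 level limit, the denominators without copied mRNAs, and the scaling without mitochondrial genes and their near-identical copies were added after seeing the data.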

Additional observations from a re-analysis of the deposited data

How the results depend on the processing

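The rods-to-retina difference of the mitochondrial share kept its direction and call under all 19 alternatives (log2 −5.02 to −4.36; leaving out a library, −5.05 to −4.82), and 35 genes stayed called lower in 21 of 22. Of all genes, 42.5% were called lower in the main fit, 57.5% with total reads and 60.7% with total reads without the mitochondrial genes. The 35 include the tRNAs that met the filter through retina alone. With at least 10 reads required in every library, 16 genes were called, since only 16 mitochondrial genes passed that filter. The ratio of mt-Nd6 to the other mRNAs passed the threshold only when mRNAs with near-identical nuclear copies were left out (0.16, exact permutation p = 0.025). The genotype difference of the share in rods was below 0 throughout (−0.61 to −0.55; leaving out a library, −0.81 to −0.36), as was that in retina (−0.13 to −0.11; −0.20 to −0.02). Whether it passes the threshold cannot be tested here. The exact test between genotypes gives no p below 0.1 with these libraries, and leaving out a library or using pairs does not lower that limit. The replicate block gave 35 genes called between rods and retina and 0 for genotype in rods, in retina or between them. The exact test on pairs gave p = 0.03125 for the share between rods and retina, the smallest value that 6 pairs can give. Numbers do not pair genotypes: correlations ran from −0.29 to 0.04. Libraries of 20348 to 73422 mitochondrial reads in rods limit the tRNAs, of which 6 had no read there.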
